A study of Homo sapiens with 9 samples.

Results

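The CDC2-like kinases CLK1, CLK2, CLK3 and CLK4 were examined across nuclear and cytoplasmic RNA of control cells and of cells depleted of WTAP and KIAA1429. The members were the 4 genes with these symbols and all of their listed transcripts, 61 in number, out of 56349 genes with a matched transcript. The rule that selects them uses gene symbols and no measured value, but the family was proposed with earlier results of these data known. The study was carried out in HEK293 cells, a human embryonic kidney line that the study's methods describe as 293T, and asked how loss of the m6A methylase complex alters mRNA export. Control cells received control siRNA. RNAi cells received siRNAs against both WTAP and KIAA1429 (Virilizer, gene symbol VIRMA), a pair of subunits of the nuclear complex that methylates adenosines in mRNA. Both conditions were the same cell line, and at the RNA level knockdown was partial in each fraction. In the nucleus, 56.3% of the control WTAP RNA and 46.6% of the control VIRMA RNA remained. In the cytoplasm 30.3% and 23.7% remained, relative to 1 control sample. Protein was not measured in these data, and the paper reports substantial knockdown of both proteins by Western blot. The groups were 3 control nuclear samples, 3 RNAi nuclear samples, 2 RNAi cytoplasmic samples (replicates 1 and 2) and 1 control cytoplasmic sample (replicate 2).

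CLKs are dual-specificity kinases that phosphorylate serine/arginine-rich (SR) proteins, the splicing factors that bind exons and recruit the spliceosome. Phosphorylation by CLKs releases SR proteins from nuclear speckles, and the CLK genes are themselves controlled through splicing. Their transcripts are a textbook example of detained introns, in which polyadenylated RNA with a few unspliced introns stays in the nucleus as a reserve that can be spliced later. A second form of control is skipping of exon 4, which shifts the reading frame and removes the kinase domain.

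Library totals ranged from 11627403 to 19036141 estimated counts, and the control cytoplasmic sample was the deepest. A level of 3 counts corresponded to between 0.19 and 0.303 CPM, a count scaled to the library total, which limits what can be seen of CLK4. Among markers of the cell line, VIM (6668 to 19268 counts), KRT8, KRT18, NEFM and PAX2 were present in every sample. Of markers for other cell types, CD3E was at 0 and PTPRC, ALB and VWF reached at most 3 counts, but COL1A1 (650.3 to 1175 counts) was present. The other fibroblast markers were low, COL1A2 at 0 to 8.1 counts and DCN at 2 to 12.2 counts. The labels name no separate cultures for the replicates, so that the tests measure the spread between these samples, which may be technical.

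In GRCh37, CLK1 (ENSG00000013441) lies on the minus strand of chromosome 2 from 201717732 to 201729414, and CLK2 (ENSG00000176444) on the minus strand of chromosome 1 from 155232659 to 155248282. CLK3 (ENSG00000179335) lies on the plus strand of chromosome 15 from 74890841 to 74937755, and CLK4 (ENSG00000113240) on the minus strand of chromosome 5 from 178029665 to 178057616. Of the 61 transcripts, 20 were annotated as protein-coding, 23 as retained intron, 8 as nonsense-mediated decay and 10 as other, the last mostly transcripts without a defined coding sequence. A mean of at least 0.5 TPM (a transcript level corrected for transcript length and scaled to a common total) over the 9 samples was reached by 24 transcripts, and 7 were listed at 0 in every sample. CLK2 had no transcript with the retained-intron or decay label, although CLK2-207, labelled as lacking a defined coding sequence, spans whole introns. For this reason the transcripts were also grouped by structure, after the values had been seen: an intron-holding transcript is a non-coding-labelled one whose exons contain a whole intron of a protein-coding transcript. Of all transcripts in the annotation with the retained-intron label, 29% met this definition.

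Each gene has a protein-coding transcript of 13 exons, and introns were numbered along it. Of the 48 introns so defined, 13 were held whole by another annotated transcript, and intron 4, just downstream of exon 4, was the only position held in all 4 genes. The 5′ splice sites of intron 4 are shown because they are the sequences that these held introns share. The last 3 bases of exon 4 are in capitals and the first 6 bases of the intron in lower case, read from GRCh37 on the strand of the gene.

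CLK1 intron 4 5′ splice site, chr2:201724842-201724850, minus strand: GATgtatag
CLK2 intron 4 5′ splice site, chr1:155238493-155238501, minus strand: GATgtacaa
CLK3 intron 4 5′ splice site, chr15:74914555-74914563, plus strand: GATgtacag
CLK4 intron 4 5′ splice site, chr5:178044339-178044347, minus strand: GATgtatag

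These 4 sites share GATgta, and CLK1 and CLK4 have the same 9 bases. Against CAGgtaagt, the sequence complementary to U1 snRNA, each matched at 4 of 9 positions, whereas the other 44 CLK introns matched at 5 to 9. Among 232006 annotated introns that begin with GT, 2.39% matched at 4 positions or fewer. That share was 6.06% of the 11436 introns held whole by another transcript and 2.2% of the 220570 that were not. A match to the consensus is a description of letters only, and the use of these sites was not measured. Across the 13 held CLK introns the matches ranged from 4 to 9, with a median of 5, so that CLK2 intron 10 (CAGgtaagt) carried the full consensus and was held all the same.

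**Figure D1:**
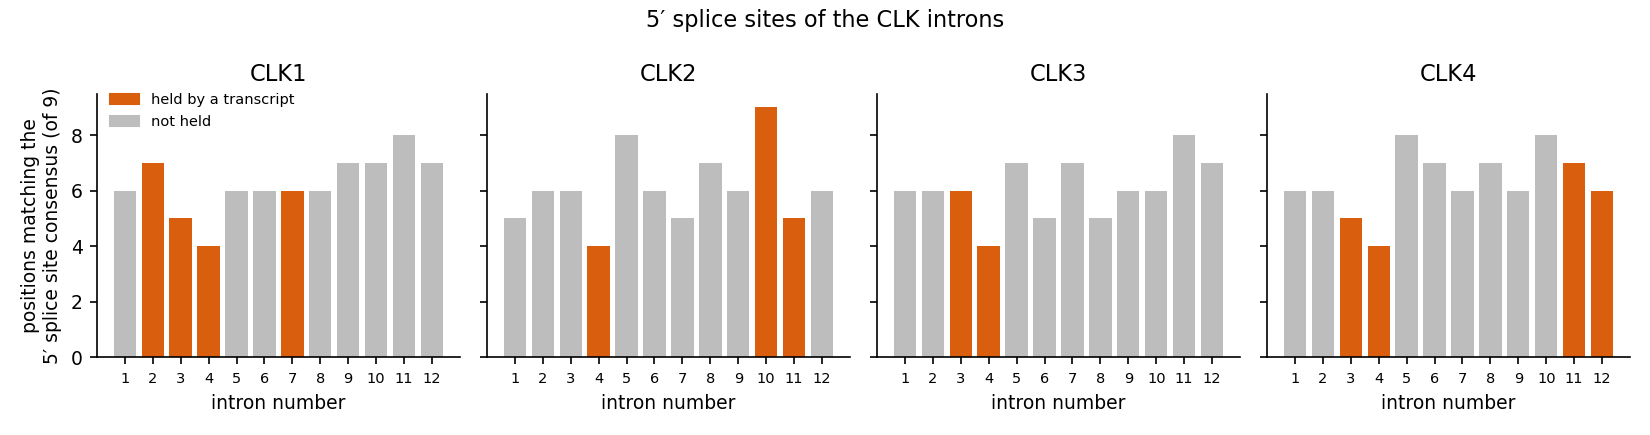
Number of positions, of 9, at which the 5′ splice site of each CLK intron matched the consensus sequence, by intron number along the 13-exon coding transcript of each gene. Orange bars mark introns held whole by an annotated transcript. Intron 4 is the lowest bar in all 4 genes, with 4 matches.

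The 3′ splice sites of intron 4 are shown for comparison, with the last 17 bases of the intron in lower case and the first 3 bases of exon 5 in capitals.

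CLK1 intron 4 3′ splice site, chr2:201724467-201724486, minus strand: ttatttctctcttttagATG
CLK2 intron 4 3′ splice site, chr1:155238148-155238167, minus strand: gctctctttcatttcagATG
CLK3 intron 4 3′ splice site, chr15:74914818-74914837, plus strand: tttcttttctctcctagATG
CLK4 intron 4 3′ splice site, chr5:178043947-178043966, minus strand: ttccctcctcactctagATG

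All 4 sites end in AG before ATG and have pyrimidine-rich tracts. Intron 4 was short in each gene, at 378 bases in CLK1, 348 in CLK2, 277 in CLK3 and 395 in CLK4. Held introns had a median of 378 bases and the other CLK introns a median of 695, and both groups ranged widely, from 86 to 1894 and from 79 to 10770 bases.

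At the level of whole genes, all 4 kinases were more abundant in nuclear than in cytoplasmic RNA, and their nuclear and cytoplasmic samples did not overlap in TPM. In estimated counts, which are not scaled for depth, CLK3 did overlap, from 372.0 in the lowest nuclear to 401.2 in the highest cytoplasmic sample. For this and later remarks on overlap, the share of all genes or transcripts that separate likewise was not computed. CLK2, a kinase of SR proteins, was at 24.7, 36.3 and 30.2 TPM in control nuclei and at 30.9, 33.7 and 34.4 TPM in RNAi nuclei. In the cytoplasm CLK2 was at 12.95 TPM in the control sample and at 13.2 and 11.3 TPM after RNAi. Every nuclear sample was therefore well above every cytoplasmic one, with no separation by siRNA.

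CLK3, the most abundant member together with CLK2, was at 25.0, 40.1 and 36.2 TPM in control nuclei and at 28.5, 30.9 and 36.3 TPM in RNAi nuclei. In the cytoplasm it was at 21.2 TPM in the control sample and at 11.4 and 10.2 TPM after RNAi. The lowest nuclear sample was thus close to the control cytoplasmic sample, and both RNAi cytoplasmic samples were lower. CLK1, the founding member of the family, was at 5.89, 12.7 and 8.12 TPM in control nuclei and at 7.89, 11.9 and 10.6 TPM in RNAi nuclei. In the cytoplasm it was at 2.19 TPM in the control sample and at 1.10 and 0.822 TPM after RNAi.

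CLK4, the closest relative of CLK1, was the lowest of the 4, at 2.99, 2.86 and 3.46 TPM in control nuclei and at 3.63, 3.17 and 3.05 TPM in RNAi nuclei. Its cytoplasmic values were 0.536 TPM in the control sample and 0.501 and 0.156 TPM after RNAi, from 17 counts in the control and 9.49 and 4.003 in the RNAi samples. The order of the levels in nuclei was CLK3 and CLK2, then CLK1, then CLK4. CLK3 and CLK2 did not differ beyond their spread (33.8 ± 7.85 against 30.4 ± 5.79 TPM in control nuclei, SD, n = 3), whereas the other steps were larger than the spread.

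**Figure D2:**
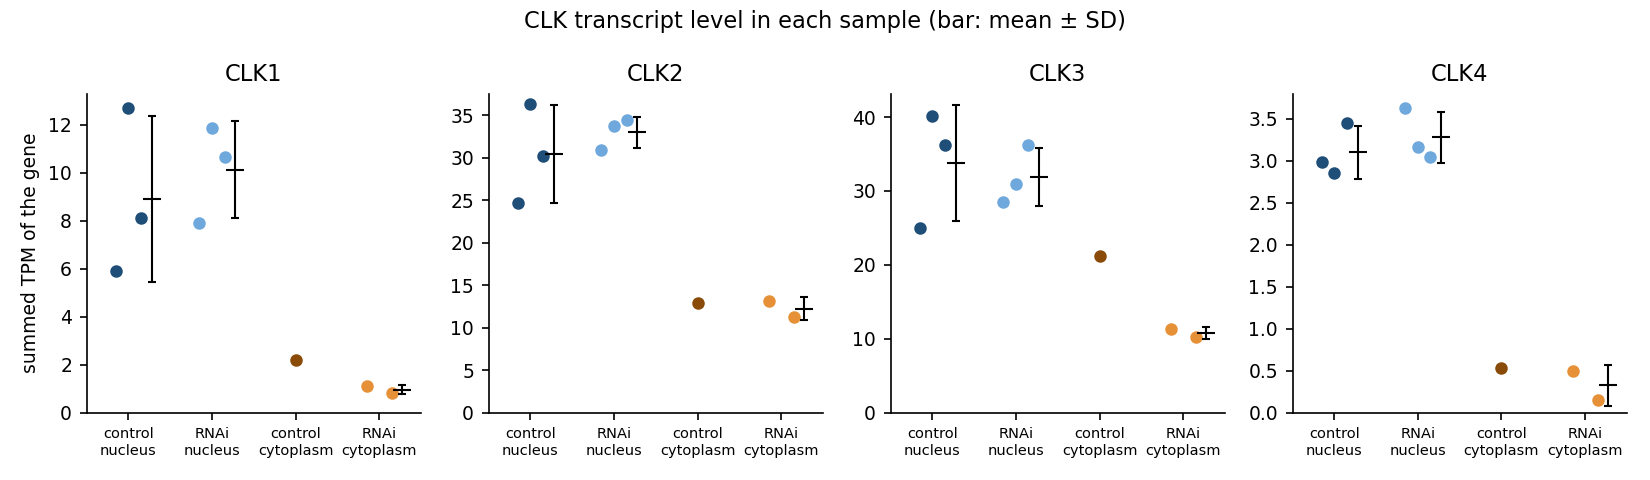
Summed TPM of all transcripts of each CLK gene in each sample, with a separate vertical axis for each gene. Points are samples and bars give the mean ± SD of groups with more than 1 sample, and in every gene the 6 nuclear samples lie above the 3 cytoplasmic ones. The share of all genes that separate likewise was not computed.

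The nuclear excess was tested on estimated counts with edgeR's quasi-likelihood test over all 16181 genes, and a gene was called at a Benjamini-Hochberg FDR under 0.1 with a log2 fold change beyond 0.5. Since the control cytoplasm is 1 sample, its spread was taken from the other groups in every test and interval below that uses it. In control cells the log2 fold change of nuclear against cytoplasmic RNA was 2.31 ± 0.389 (SE) for CLK4, 1.503 ± 0.242 for CLK1, 1.29 ± 0.154 for CLK2 and 0.73 ± 0.159 for CLK3. All 4 were called as higher in the nucleus, as were 28% of all genes tested (edgeR FDR 0.000146 to 0.00402), and 22.7% were called as lower. In RNAi cells the same log2 fold changes were 3.08 for CLK4, 2.70 for CLK1, 1.19 for CLK2 and 1.09 for CLK3, again with 4 of 4 called as higher against 32.9% of all genes, and 24.9% called as lower. With limma on log2(TPM + 1) the CLK3 call in control cells was lost (0.62, FDR 0.110). The medians over all genes were 0.037 and 0.035, and the CLK medians 1.40 and 1.95. Fold changes between fractions are relative to the total RNA of each library, since the amount of RNA per fraction was not measured.

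The classes of transcript behind these levels differed between the fractions. In nuclei, CLK1 RNA was almost entirely of the retained-intron class, which made up 87.6%, 86.5% and 91.1% of its TPM in control cells and 74.3%, 84.8% and 86.4% in RNAi cells. Part of this TPM lay in the short forms CLK1-214 and CLK1-206, which had at most 19.3 and 6.4 counts in any sample. In estimated counts the retained-intron class was at 115.2 to 168.1 in the 6 nuclear samples, where the whole gene was at 129.3 to 198.2. In the control cytoplasm that class was 7.31%, and protein-coding transcripts made up 76.1%, against 6.68% to 18.6% in the 6 nuclear samples. In the RNAi cytoplasm the retained-intron share was 4.11% and 0%, and the rest was divided between coding (41.9% and 18.3%) and decay transcripts (54.0% and 81.7%), from only 28 and 16 counts in all. Shares of the RNAi cytoplasmic samples therefore carry a large counting error.

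CLK2 showed the same shift with other labels. Its coding transcripts made up 35.9%, 40.4% and 29.7% of TPM in control nuclei and 31.8%, 29.0% and 33.5% in RNAi nuclei. In the cytoplasm coding transcripts made up 84.3% in the control and 92.5% and 95.6% after RNAi. The nuclear and cytoplasmic samples did not overlap, and the remainder lay in transcripts without a defined coding sequence.

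CLK3 coding transcripts made up 47.6%, 44.5% and 41.5% of TPM in control nuclei, against 79.2% in the control cytoplasm. Its retained-intron class took 38.5%, 38.4% and 39.3% of TPM in control nuclei and 35.6%, 41.8% and 32.1% in RNAi nuclei. In the cytoplasm that class took 7.05% in the control and 10.3% and 17.5% after RNAi, so that the fractions did not overlap. CLK4 was the exception in that its coding class was at or near 0 in all 9 samples, at most 0.0832 TPM. Its nuclear RNA was divided between retained-intron (35.7% to 47.0%), decay (6.75% to 39.9%) and other transcripts (18.4% to 46.3%) over the 6 nuclear samples. Its cytoplasmic shares rest on 4.003 to 17 counts and were not compared.

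**Figure D3:**
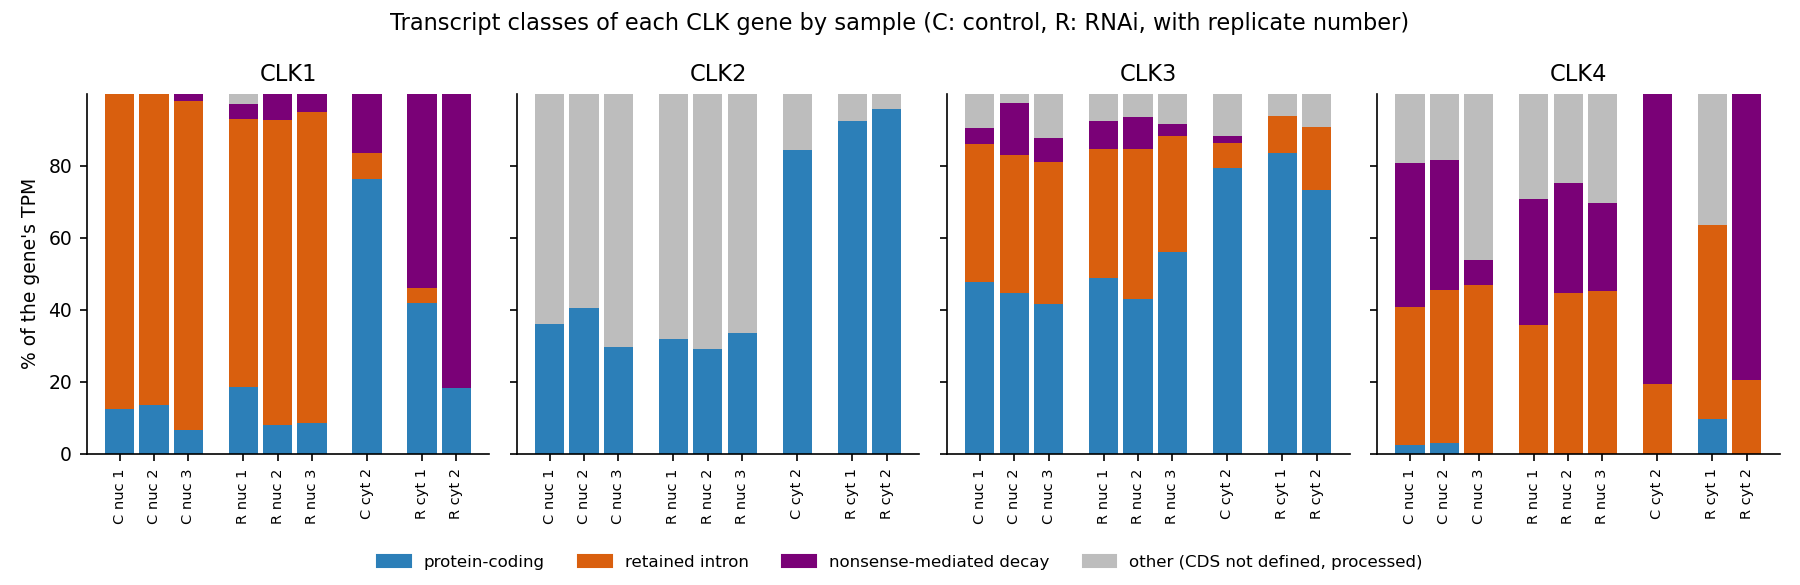
Share of the TPM of each CLK gene held by protein-coding, retained-intron, nonsense-mediated decay and other transcripts, in percent, 1 bar per sample. CLK1 nuclei are dominated by the retained-intron class and CLK2 nuclei by other transcripts, whereas coding transcripts make up 73.1% to 95.6% of CLK2 and CLK3 in the cytoplasmic samples. CLK4 bars of the cytoplasm rest on at most 17 counts.

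In TPM, the intron-holding transcripts were close to confined to the nucleus in all 4 genes. For CLK4 this does not set the class apart, since the whole gene had at most 17 counts in any cytoplasmic sample. CLK2-207, the single most abundant nuclear CLK transcript, holds introns 4, 10 and 11. It was at 10.04, 14.7 and 14.1 TPM in control nuclei and at 15.5, 16.2 and 16.8 TPM in RNAi nuclei. In the cytoplasm it was at 0.149 TPM in the control and at 0.270 and 0.248 TPM after RNAi, which is 6.60, 10.5 and 7.98 counts. It alone made up 40.4% to 50.0% of the CLK2 TPM in nuclei and 1.15% to 2.20% in the cytoplasm.

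In CLK3, intron-holding transcripts were at 4.37, 5.08 and 4.24 TPM in control nuclei and at 4.54, 3.80 and 5.04 TPM in RNAi nuclei. They were listed at 0 in the control cytoplasm and at 0.0414 and 0.0479 TPM after RNAi. Introns 3 and 4, which flank exon 4, were held by CLK3-226 together, by CLK3-203 for intron 3 and by CLK3-224 for intron 4, while CLK3-206 holds an intron of another coding transcript. CLK3-226 was at 2.06, 2.37 and 2.37 TPM in control nuclei and at 2.09, 1.87 and 3.08 TPM in RNAi nuclei, and was listed at 0 in all 3 cytoplasmic samples.

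In CLK1, intron-holding transcripts were at 2.47, 3.53 and 2.87 TPM in control nuclei and at 2.92, 4.02 and 3.13 TPM in RNAi nuclei, against 0.160 TPM in the control cytoplasm and 0.0453 and 0 TPM after RNAi. Intron 4 was held by CLK1-207 and CLK1-210, intron 3 by CLK1-210, intron 7 by CLK1-207 and intron 2 by CLK1-212. CLK1-210, which keeps both introns around exon 4, was at 1.71, 0.930 and 1.47 TPM in control nuclei and at 0.914, 0.663 and 0.381 TPM in RNAi nuclei, and these groups did not overlap. Among forms above 0.5 TPM, CLK2-207, CLK3-205 and CLK3-212 also separated the nuclei by siRNA, with RNAi higher, and CLK3-215 with RNAi lower. Of these, CLK3-205 and CLK3-212 had at most 11.5 and 7.6 counts in any sample. The share of all transcripts that separate the nuclei likewise was not computed, so these separations are a description only. Single transcripts were not tested. CLK1-207 was at 0.758, 2.60 and 1.39 TPM in control nuclei and at 2.00, 2.76 and 2.16 TPM in RNAi nuclei, and these overlapped. Both transcripts share most of their sequence, so the split of reads between them is uncertain.

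In CLK4, intron-holding transcripts were at 0.975, 0.692 and 1.16 TPM in control nuclei and at 0.979, 1.17 and 0.698 TPM in RNAi nuclei. They were listed at 0 in the control cytoplasm and at 0.114 and 0.0321 TPM after RNAi. Introns 3 and 4 were held by CLK4-203, intron 3 also by CLK4-206, and introns 4, 11 and 12 by CLK4-202. Each of these transcripts thus holds at least 1 of the introns that flank exon 4. Unspliced precursor RNA and polyadenylated RNA with detained introns cannot be told apart in these values.

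**Figure D4:**
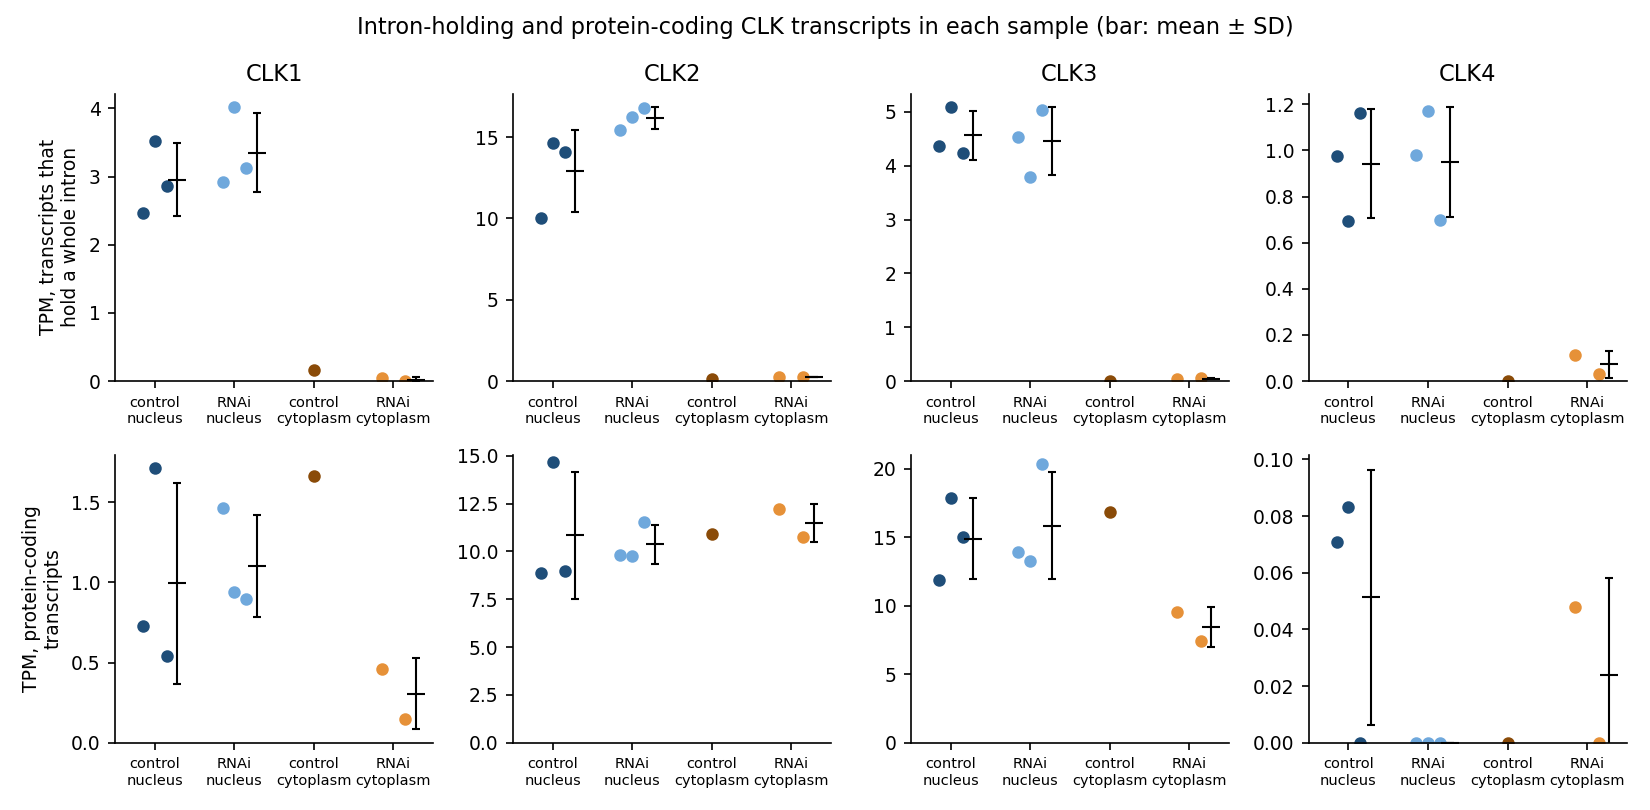
TPM of intron-holding transcripts (upper row) and of protein-coding transcripts (lower row) of each CLK gene in each sample, with separate vertical axes. Points are samples and bars give the mean ± SD of groups with more than 1 sample. Intron-holding transcripts are near 0 in all cytoplasmic samples, whereas coding transcripts of CLK2 and CLK3 are present in both fractions.

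The balance of the transcript classes was tested with limma on the log2 ratio of summed TPM to that of the coding transcripts, with 0.5 TPM added to both. Only CLK3 passed the filter on low values for the retained-intron label. Its balance was higher in nuclear than in cytoplasmic RNA by 2.93 on the log2 scale in control cells (95% interval 1.93 to 3.92, limma FDR 0.000881) and by 1.78 in RNAi cells (0.99 to 2.56, FDR 0.00204). Across the 4228 genes tested, 51.3% and 62.7% were called as higher in the nucleus, with medians of 1.24 and 1.40. A nuclear shift of this class was thus common, and CLK3 lay above 86.5% of genes in control cells and above 60.1% in RNAi cells.

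By structure, CLK2 and CLK3 passed the filter, but only through their nuclear samples, since their intron-holding transcripts were under 0.5 TPM in every cytoplasmic sample. A nuclear excess was thus built into passing, and the values are given as a description of its size. In control cells the intron-holding balance of CLK2 was higher in the nucleus by 4.40 (3.63 to 5.16, limma FDR 4.64e-05) and that of CLK3 by 3.52 (2.76 to 4.29, FDR 7.96e-05). In RNAi cells the values were 4.60 for CLK2 and 2.33 for CLK3. The CLK2 difference was above that of 98.2% of the 2145 genes tested in control cells and 98.7% in RNAi cells, and 59.8% and 72% of genes were called in this direction.

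CLK1 and CLK4 failed the filter because their coding transcripts averaged under 1 TPM. Without it, the intron-holding balance of CLK1 was higher in the nucleus by 2.99 in control and 1.87 in RNAi cells, and that of CLK4 by 1.38 and 1.40. All 4 genes were then called in both (limma FDR 9.16e-05 to 0.0150 in control cells), against 39.5% and 47.6% of the 4102 genes tested. With the retained-intron label and no filter, the control differences were 4.21 for CLK1 and 1.45 for CLK4, and 3 of 3 genes with such transcripts were called in both conditions (32.9% and 40.6% of 7909 genes). For CLK4 the denominator was near 0, so that its value largely reflects the numerator and the added 0.5 TPM.

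The coding transcripts alone did not share the nuclear excess in control cells. CLK2 coding transcripts were at 8.88, 14.7 and 8.98 TPM in control nuclei and at 9.83, 9.75 and 11.5 TPM in RNAi nuclei. In the cytoplasm they were at 10.9 TPM in the control and at 12.2 and 10.8 TPM after RNAi. The cytoplasmic samples thus fell inside the nuclear range.

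CLK3 coding transcripts were at 11.9, 17.9 and 15.02 TPM in control nuclei and at 13.9, 13.2 and 20.3 TPM in RNAi nuclei, against 16.8 TPM in the control cytoplasm and 9.52 and 7.45 TPM after RNAi. CLK1 coding transcripts were at 0.730, 1.71 and 0.542 TPM in control nuclei and at 1.47, 0.938 and 0.897 TPM in RNAi nuclei. The control cytoplasm held 1.67 TPM of them, and the RNAi cytoplasm 0.462 and 0.1504 TPM, the lowest of all samples. In estimated counts these CLK1 values were 50.0 in the control cytoplasm and 12.4 and 3.25 after RNAi.

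When the edgeR test was repeated on coding transcripts only, an alternative added after seeing the data, none of the 3 CLK genes that passed the filter was called between the fractions in control cells. The log2 fold changes of nuclear against cytoplasmic RNA were 0.08 ± 0.218 for CLK2, -0.22 ± 0.229 for CLK3 and -0.92 ± 0.553 for CLK1 (SE, edgeR FDR 0.802, 0.484 and 0.223). Of the 12774 genes tested, 21.4% were called as higher and 19% as lower in the nucleus. In RNAi cells CLK1 alone was called, at 1.67 ± 0.554 (FDR 0.0322, against 26.8% of genes called as higher), and CLK2 and CLK3 were at -0.23 and 0.32. The difference between the estimates with all and with coding transcripts was not itself tested.

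**Figure D5:**
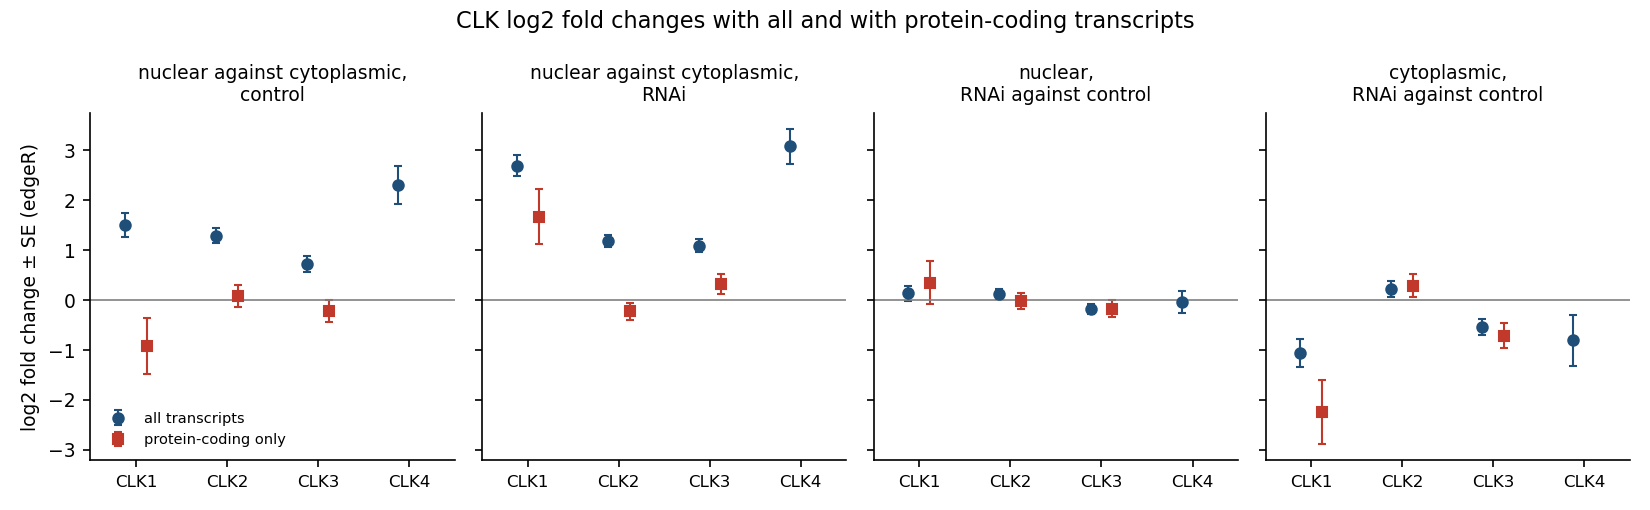
Log2 fold changes of the CLK genes from edgeR with all transcripts (circles) and with protein-coding transcripts only (squares), with bars for 1 standard error, in 4 comparisons. In control cells all 4 genes lie above 0 with all transcripts (0.73 to 2.31), whereas the 3 genes tested with coding transcripts only lie between -0.92 and 0.08. CLK4 had too few coding counts to be tested.

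Knockdown of WTAP and KIAA1429 was next compared with control siRNA within each fraction. In nuclei none of the 4 genes was called, where 4.89% of all genes were. That share fell to 0.327% without RNAi nuclear replicate 3, 0.662% without RNAi nuclear replicate 2, 1.61% without RNAi nuclear replicate 1 and 0.548% without control nuclear replicate 3. The log2 fold changes were 0.14 ± 0.151 for CLK1, 0.13 ± 0.0994 for CLK2, -0.18 ± 0.108 for CLK3 and -0.03 ± 0.219 for CLK4 (SE, edgeR FDR 0.382 to 0.954). Control and RNAi nuclei overlapped in estimated counts for each gene, for example at 150, 198.2 and 129.3 counts against 191.9, 150.2 and 160.3 counts for CLK1. With coding transcripts only, 0 of 3 were called (4.01% of genes). Nor was any of the balances called in nuclei. The retained-intron balance of CLK3 differed by -0.23 (95% interval -0.93 to 0.48, limma FDR 0.843, 0.0473% of genes called), and the intron-holding balances of CLK2 and CLK3 differed by 0.36 (-0.19 to 0.90) and -0.11 (-0.65 to 0.43), where 0.14% of genes were called. Without the filter, the CLK4 balance differed by 0.14 (-0.42 to 0.71) and that of CLK1 by -0.000365 (-0.71 to 0.71, 0.0488% of genes called). These intervals leave room for a difference of up to 0.93 in size for CLK3 and 0.90 for CLK2.

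In the cytoplasm CLK1 and CLK3 were lower after RNAi. CLK1 had 68.0 counts in the control sample and 28 and 16 in the RNAi samples, or 4.14 against 2.18 and 1.75 CPM. Its log2 fold change was -1.05 ± 0.281 (SE, edgeR FDR 0.0253). CLK3 had 401.2 counts in the control and 212.4 and 155.9 after RNAi, or 24.4 against 16.5 and 17.1 CPM, with a log2 fold change of -0.54 ± 0.166 (FDR 0.0436). CLK4, with 17 against 9.49 and 4.003 counts, differed by -0.81 ± 0.506 and was not called (FDR 0.294). CLK2, at 25.1 against 29.7 and 29.2 CPM, differed by 0.23 ± 0.157 (FDR 0.342). Thus 2 of 4 genes were called as lower, where 14.2% of all genes were.

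This comparison rests on 1 control cytoplasmic sample. The CLK1 call was lost when effective transcript length was used as an offset (log2 fold change -0.92, FDR 0.157) and with limma on log2(TPM + 1) (-0.70, FDR 0.318), and the CLK3 call was lost without RNAi cytoplasmic replicate 1 (-0.52, FDR 0.114). With coding transcripts only, CLK1 was lower by a larger estimate, -2.25 ± 0.644 (FDR 0.0396), and CLK3 by -0.71 ± 0.244 (FDR 0.0711), against 15.3% of genes called as lower. Nuclear long non-coding RNAs were also lower in the RNAi cytoplasm: MALAT1 differed by -1.20 (FDR 0.0642) and KCNQ1OT1 by -0.78 (FDR 0.0559), whereas NEAT1, at -0.32, was not called. The summed CPM of the 5 nuclear RNAs listed as fraction markers was 33.2 in the control cytoplasm and 20.5 and 19.7 in the RNAi cytoplasm, with MEG3 and MIAT at 3.6 counts or fewer. In nuclei the sum was 254.8 to 353.7 in control and 390.2 to 418.8 in RNAi samples. The mitochondrially encoded mRNAs, listed as cytoplasmic markers, summed to 136924 to 276951 CPM in nuclei and to 112075 to 209516 CPM in the cytoplasm. These ranges overlap, so this set did not separate the fractions. The part of either marker set in the CLK results was not tested. Intron-holding transcripts made up at most 7.31% of CLK1 TPM in any cytoplasmic sample, against 27.8% to 41.9% in nuclear samples. The highest cytoplasmic shares of the other genes were 2.20% in CLK2, 0.470% in CLK3 and 22.7% in CLK4. For CLK4 these transcripts had at most 5.19 counts in the cytoplasm.

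The change in the nuclear/cytoplasmic ratio, which was the comparison of interest in the study, was called for CLK1 alone. The log2 ratio was 1.503 in control and 2.70 in RNAi cells, a difference of 1.19 ± 0.319 (SE, edgeR FDR 0.0385). CLK4 differed by 0.77 ± 0.551 (FDR 0.392), CLK3 by 0.36 ± 0.199 (FDR 0.263) and CLK2 by -0.10 ± 0.185 (FDR 0.773). So 1 of 4 genes was called as higher, where 10.4% of all genes were (7.87% as lower), and MALAT1, NEAT1 and KCNQ1OT1 were called as well (1.33, 0.85 and 1.58). The split of these shares depended on the scaling: with library size only, 13.8% of genes were called as higher and 1.01% as lower, with limma on TPM 7.21% and 0.235%, and the median over all genes moved from -0.047 to 0.233 and 0.210. The CLK1 estimate was 1.06 with the length offset and 0.91 with limma on TPM, but without a call (FDR 0.193 and 0.306). With coding transcripts only it was 2.59 ± 0.779 (FDR 0.0696), where 10% of genes were called as higher. The balances were not called in these comparisons either. For CLK3 the intron-holding balance differed by 1.08 in the cytoplasm (95% interval 0.27 to 1.89, limma FDR 0.293) and by -1.19 in the ratio (-2.17 to -0.22, FDR 0.431), with 0% of genes called in both. On estimated counts in place of TPM these became calls, at 3.71 (FDR 0.00575) and -3.54 (FDR 0.0182), on cytoplasmic counts of 0 in the control and 2.31 and 2.21 after RNAi. At that setting 3.31% of genes were called as higher in the cytoplasm and 1.26% as lower in the ratio, so calls rose among all genes too. The retained-intron balance of CLK3 differed by 0.92 and -1.15 (limma FDR of at least 0.486, and 0.53 to 1.32 and -1.54 to -0.76 when samples were left out), where 0.591% and 0.0473% of genes were called. Whether the difference for CLK1 was larger than those for the other 3 genes was not tested. This comparison shares the control cytoplasmic sample with the one above.

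Exon 4, whose skipping removes the frame of the kinase domain, measures 91 bases in CLK1, 85 in CLK2, 97 in CLK3 and 91 in CLK4, and none of these is a multiple of 3. Transcripts that join exon 3 to exon 5 were present in all 4 genes. CLK2-205 was at 3.65, 5.61 and 4.78 TPM in control nuclei and at 3.71, 5.004 and 3.52 TPM in RNAi nuclei, against 1.65 TPM in the control cytoplasm and 0.725 and 0.248 TPM after RNAi. This skipped form was thus higher in every nuclear sample. CLK2-201 and CLK2-202, the coding transcripts that include exon 4 with exactly these ends, summed to 5.36 to 10.8 TPM in nuclei and 5.62 to 7.14 TPM in the cytoplasm, which overlap. The coding transcript CLK2-203 has no exon with exactly these ends and was counted neither as including nor as skipping. It was at 3.39 to 4.39 TPM in nuclei and 3.77 to 6.58 TPM in the cytoplasm.

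In CLK3 the skipped forms overlapped between the fractions, at 1.59, 3.48 and 2.57 TPM in control nuclei, 5.87, 2.65 and 3.70 TPM in RNAi nuclei, 5.37 TPM in the control cytoplasm and 2.45 and 2.03 TPM in the RNAi cytoplasm. They divided into CLK3-209, at 0.424 to 2.18 TPM in nuclei and 0 in the cytoplasm, and CLK3-223, at 0 to 4.29 TPM in nuclei and at 5.37, 2.45 and 2.03 TPM in the control and the RNAi cytoplasm, which overlap. Both are short annotated fragments, of 544 and 481 bases, which weakens their assignment.

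In CLK1 the skipped form was CLK1-204, a decay transcript, at 0, 0 and 0.178 TPM in control nuclei and 0.327, 0.858 and 0.548 TPM in RNAi nuclei. These groups did not overlap, but the values rest on at most 12.8 counts. In the cytoplasm it was at 0.362 TPM in the control and at 0.596 and 0.672 TPM after RNAi, or 9.45, 13.6 and 12.7 counts. The decay balance of CLK1, which could be fitted only without the filter, differed by 0.77 in nuclei (95% interval -0.32 to 1.86, limma FDR 0.679) and by 1.85 in the cytoplasm (0.21 to 3.48, FDR 0.512) and was not called, as in nearly all genes (0% and 0.0185% called). In CLK4 the skipped forms, mainly CLK4-212, were at 0.580, 0.670 and 1.60 TPM in control nuclei. They were at 1.13, 0.786 and 1.04 TPM in RNAi nuclei, against 0, 0.183 and 0.124 TPM in the control and the RNAi cytoplasm. CLK4-212 is a short annotated fragment of 572 bases with at most 6.6 counts in any sample, which weakens this difference. For CLK3 the decay balance was higher in the nucleus by 1.93 in control cells (0.31 to 3.55, FDR 0.172) and by 1.47 in RNAi cells (0.19 to 2.75, FDR 0.135), neither called (8.04% and 18.5% of 2389 genes were). Without the filter CLK4 was called in RNAi cells, at 1.47 (FDR 0.0502, 9.17% of genes called as higher).

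The other abundant transcripts showed which parts of the genes carried the nuclear signal. CLK3-201, the 13-exon coding transcript and the most abundant CLK3 form, was at 7.07, 6.83 and 8.98 TPM in control nuclei, at 3.83, 6.80 and 7.19 TPM in RNAi nuclei, at 10.5 TPM in the control cytoplasm and at 5.77 and 5.23 TPM in the RNAi cytoplasm. The full-length CLK2 forms CLK2-202 and CLK2-203 were at 3.63 to 8.40 and 3.39 to 4.39 TPM in nuclei and at 5.30 to 5.76 and 3.77 to 6.58 TPM in the cytoplasm, and CLK2-201 was at 0.758 to 2.39 TPM in nuclei and 0.301 to 1.84 TPM in the cytoplasm. All of these overlapped between the fractions.

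Several short forms that hold no whole intron were also higher in nuclei, but most of those named here carry part of one. By their annotated ends, CLK1-214 begins inside intron 10, CLK1-206 begins inside intron 11 and CLK2-206 stops inside intron 3. In CLK3, CLK3-222 begins inside intron 12, and CLK3-208 and CLK3-218 stop inside it. CLK1-214 and CLK1-206, of 480 and 435 bases, were at 1.68 to 5.36 and 0.360 to 2.10 TPM in the 6 nuclear samples and listed at 0 in all 3 cytoplasmic ones. These TPM values rest on at most 19.3 and 6.4 counts in any sample. CLK2-206 was at 1.34 to 2.71 TPM in nuclei and at most 0.0762 TPM in the cytoplasm, with at most 13.2 counts in any sample. In CLK3 the retained-intron forms CLK3-208 and CLK3-222 were at 2.00 to 4.24 and 3.10 to 5.86 TPM in nuclei and at 0 to 0.605 and 1.13 to 1.39 TPM in the cytoplasm. CLK3-218, labelled as coding but only 646 bases long, followed them, at 1.54 to 5.64 TPM in nuclei and at most 0.0749 TPM in the cytoplasm, and so did the short CLK3-212 (0.283 to 1.49 TPM against 0, at most 7.6 counts). The decay form CLK3-216 was at 0.819 to 5.75 TPM in nuclei and 0 to 0.423 TPM in the cytoplasm.

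The remaining forms above 0.5 TPM, CLK3-215, CLK3-205 and CLK3-219, did not separate the fractions, except that CLK3-215 was slightly higher in nuclei (0.525 to 1.10 against 0.384 to 0.535 TPM, overlapping). The gene CLK3 overlaps EDC3 on the opposite strand over 14857 bases and CLK2 overlaps HCN3 over 1029 bases, and whether the counting used strand is not given in the sources used here, so reads in those stretches cannot be assigned with certainty. The pseudogenes CLK2P1 and CLK3P2 were at 0 counts in all samples.

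The substrates and partners of the CLKs were described for comparison from lists chosen with earlier results of these data known. Among 14 SR proteins, at the gene level 2 were called as higher and 4 as lower in control nuclei than in the control cytoplasm, with a median log2 fold change of -0.384, in the opposite direction to the CLK median of 1.40, where 28% and 22.7% of all genes were called. Their retained-intron balance, in contrast, was called as higher in the nucleus for 10 of the 10 SR genes that passed the filter, in control cells (median 2.78) and in RNAi cells (median 2.86), beside 51.3% and 62.7% of all genes with medians of 1.24 and 1.40. In the nuclear/cytoplasmic ratio after RNAi 3 of 14 SR genes were called as higher and 0 as lower, beside 10.4% and 7.87% of all genes. These were SRSF11 (1.85 ± 0.177, FDR 0.000831), SRSF10, a splicing repressor activated by dephosphorylation (0.79 ± 0.254, FDR 0.0715), and SRSF6 (0.64 ± 0.163, FDR 0.0336, SE, edgeR), and all 3 were also called as lower in the cytoplasm.

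Of 12 other kinases of SR proteins and relatives of the CLKs, 3 were called as higher and 1 as lower in the ratio, against the same background of 10.4% and 7.87%. PRPF4B, a kinase of the tri-snRNP that is related to the CLKs, had the largest difference, 2.60 ± 0.248 (SE, edgeR FDR 0.000831), followed by HIPK3 (1.30 ± 0.251, FDR 0.0116) and SRPK2, an SR protein kinase of the cytoplasm (0.58 ± 0.195, FDR 0.0788). DYRK1B was the one called as lower (-0.66 ± 0.153, FDR 0.0235). None of the 4 genes for the SR protein phosphatase PP1 and the importer TNPO3 was called in the ratio. All 4 were called as lower in nuclei than in the cytoplasm in both conditions. So were 22.7% of all genes in control cells and 24.9% in RNAi cells. At the gene level OGT, an enzyme that glycosylates nuclear proteins and has a well-known detained intron, was called as higher in the nucleus in control cells (1.40 ± 0.172), and MAT2A, which makes the methyl donor S-adenosylmethionine, was at 0.23 ± 0.112 and was not. The intron-holding balance of both was called as higher in control nuclei, by 2.50 for OGT and 4.15 for MAT2A, beside 4.40 and 3.52 for CLK2 and CLK3. Such a call was common, at 59.8% of the 2145 genes tested. For CLK2 and CLK3 a nuclear excess was built into passing the filter, so their values describe its size only. Whether OGT and MAT2A passed in the same way was not examined, and the 4 values were not compared by a test.

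The genes whose log2 CPM followed each CLK most closely over the 9 samples, as the smallest root mean square difference after centring, were XRCC2 and PRPF39 for CLK1 (0.094 and 0.101), PARP6 for CLK2 (0.071), NASP for CLK3 (0.084) and CHD6 for CLK4 (0.134). This likeness is over 9 samples that mostly differ by fraction, and it carries no test.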

How the data were processed

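RNA from the nuclear and cytoplasmic fractions was sequenced after poly(A)-based library preparation with a kit that the labels name as Lexogen SENSE mRNA-Seq. The authors trimmed reads with cutadapt and quantified Ensembl transcripts of hg19 with Salmon, whose versions are not given in the sources used here. The deposited tables, made by the authors, give every transcript a TPM and an estimated count from Salmon, the TPM being scaled to effective length and to a common total. The deposited transcript lengths and effective lengths, in nucleotides, were used only for the length offset.

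Transcripts were matched without version number to GENCODE version 44 on GRCh37, the build of hg19 (85.1% of 215170 transcripts, 83.07% to 88.31% of counts). Transcript classes are those of this newer annotation. Counts were added up over the transcripts of a gene, then made whole. edgeR 4.0.16 and limma 3.58.1 in R 4.3.3 fitted 4 groups without a replicate block, with 5 residual degrees of freedom in edgeR. Genes entered edgeR with at least 10 counts in at least 3 samples (TMM normalization) and the limma balances with mean TPM of at least 0.5 for the class and 1 for coding transcripts. Standard errors in edgeR were derived from the fold change and its F statistic. Alternatives were DESeq2 1.42.0, other scalings and filters, a length offset, other pseudocounts and denominators, a replicate block and leaving out each of 8 samples in turn, all but the only control cytoplasmic one. Both fits were tested on simulated data. Splice sites were read from the GRCh37 sequence.

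The members and lists were chosen with earlier results of these data known. The genes named were the 4 members, their transcripts with a mean of at least 0.5 TPM, up to 3 called genes in each direction per list in the ratio comparison, and up to 3 nearest genes per member. Intervals and SDs cover these samples only. The result of 1 marker gene is not reported here.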

Additional observations from a re-analysis of the deposited data

Results flagged for a closer look

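The nuclear/cytoplasmic ratio of CLK1 was higher in RNAi than in control cells by 1.19 on the log2 scale (edgeR FDR 0.0385), where 10.4% of all genes were called likewise. The call was lost with the length offset (1.06, FDR 0.193) and with limma on log2(TPM + 1) (0.91, FDR 0.306). It was singled out because the fraction effect differed between control and RNAi cells in a test of the interaction. The other 3 CLK genes did not meet this test. The difference came with a cytoplasmic level of 68.0 counts in the only control sample against 28 and 16 counts after RNAi, while the nuclear samples overlapped.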

How the results depend on the processing

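Over all results and alternatives, 851 of 910 recomputed values were rated as unchanged. For the values of single genes this meant the same direction and the same side of the threshold. For the counts of CLK genes called, which rest on the same fits, it meant an equal or similar count. Among the counts of CLK genes called, the cytoplasmic count fell from 2 to 1 with the length offset, with limma on log2(TPM + 1) and without RNAi cytoplasmic replicate 1, and the ratio count from 1 to 0 with the length offset and limma. With coding transcripts only, the nuclear against cytoplasmic count was 0 in control and 1 in RNAi cells in place of 4. The retained-intron count between fractions rose from 1 to 3 with no filter and to 2 with all other transcripts as denominator in both conditions. The intron-holding count between fractions rose from 2 to 4 with no filter, and with estimated counts in place of TPM it was 1 in the cytoplasmic and ratio comparisons. The decay count between fractions in RNAi cells rose from 0 to 1 with a pseudocount of 0.1, no filter, estimated counts, the replicate block, and without RNAi nuclear replicate 3, settings at which 9.17% to 18.3% of all genes were called as higher. The causes of these shifts were not tested.

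Several values changed sign, among them fraction differences of CLK1, CLK3 and CLK2 that were called with all transcripts. In nuclei CLK4 moved from -0.03 to 0.00168 with library size only, 0.00988 with the length offset and 0.0623 with limma, and CLK2 to -0.0193 with coding transcripts. In the cytoplasm CLK2 was -0.0286 with library size only and -0.0801 with limma, and its ratio 0.17 and 0.21. With coding transcripts the nuclear against cytoplasmic differences reversed for CLK1 (-0.92) and CLK3 (-0.22) in control cells and for CLK2 (-0.23) in RNAi cells. The CLK3 retained-intron balance in nuclei was 0.11 with estimated counts. Its decay balance was -1.40 in the cytoplasm with a pseudocount of 0.1 and -2.32 with estimated counts, and 0.99 and 2.22 in the ratio. The CLK3 intron-holding balance in nuclei was 0.17 with estimated counts and 0.0269 with all other transcripts as denominator. The CLK2 intron-holding ratio was -0.0887 with a pseudocount of 0.1 and -0.35 with estimated counts.

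With each of 8 samples left out in turn, all but the only control cytoplasmic sample, CLK4 in nuclei ranged from -0.18 to 0.11, the CLK3 decay balance from -0.70 to 0.0650 in nuclei and from -0.0934 to 0.24 in the cytoplasm, and the CLK3 intron-holding balance in nuclei from -0.20 to 0.0119. The counts then ranged from 1 to 2 (gene level, cytoplasm) and 0 to 1 (decay, RNAi cells). CLK4 ranged from -1.22 to -0.60 in the cytoplasm and from 0.57 to 1.19 in the ratio. The CLK1 ratio lay between 1.10 and 1.38 (FDR 0.0199 to 0.0996). The labels do not say that a replicate number marks a shared culture or batch. In nuclei the deviations of same-numbered samples correlated at 0.212, 0.118 and 0.043, in each case the best match of the control sample, and across fractions at 0.252, 0.241, 0.144 and 0.061. All 7 were positive, but not all exceeded 0.1, so the samples were not treated as pairs. With the replicate block the CLK1 ratio was 1.12 (FDR 0.0438), and the CLK3 decay balance between fractions in RNAi cells was called, at 1.72 (FDR 0.0875), while no other call changed. Depth limited CLK4 and CLK1 in the cytoplasm, and 1 control cytoplasmic sample limited every comparison with it.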
